A study of Sus scrofa with 20 samples.

Results

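The HOXC genes encode homeodomain transcription factors whose genes lie side by side in a HOX cluster. They were taken as every row of the deposited gene table whose pig Ensembl identifier carries a symbol of HOXC followed by a number only, which gave 9 of 19280 genes. The 9 members were HOXC4 (ENSSSCG00000038993), HOXC5 (ENSSSCG00000040798), HOXC6 (ENSSSCG00000030585), HOXC8 (ENSSSCG00000038644), HOXC9 (ENSSSCG00000034474), HOXC10 (ENSSSCG00000022728), HOXC11 (ENSSSCG00000028104), HOXC12 (ENSSSCG00000000281) and HOXC13 (ENSSSCG00000000279). In the RefSeq gene table of assembly Sscrofa11.1 they follow each other on chromosome 5 in the order HOXC13, HOXC12, HOXC11, HOXC10, HOXC9, HOXC8, HOXC6, HOXC5 and HOXC4. All 9 were among the 15735 genes that passed the filter on low counts.

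HOX genes are switched on along the body axis of the embryo in the order of their places in the cluster, so that low-numbered genes are used from the neck and upper trunk backwards and high-numbered genes in the hind trunk and the ends of the limbs. Dermal fibroblasts of adult human skin keep much of this pattern, and HOX transcripts of a skin sample therefore record where on the body it lay. The dermis of the face comes from cranial neural crest cells that form without HOX expression. HOXC13 has a further role in the hair follicle and the nail, where it controls hair keratin genes in mouse and human.

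The samples were punch biopsies 4 mm wide from the skin of 5 female wild-type Yorkshire pigs, each sampled at the sole side of the foot (volar), the upper side of the foot (dorsal), the snout and the flank. This gave 20 libraries, 5 per label, and the study compared expression between these sites. No group carried a treatment or an allele of its own, and the labels do not say whether a foot was a fore or a hind foot. By library number the pigs form a first set of 12 libraries, from the pigs aged 4, 7 and 8 months, and a second set of 8 libraries, from the pigs aged 5 and 6 months. Totals were 34077861 to 66906489 assigned counts per library. Levels below are CPM, which are counts scaled to the depth of each library, adjusted by the trimmed mean of M-values (TMM), and because they are not divided by transcript length they are compared between libraries, not between genes. A biopsy holds many cell types, so fewer cells of a type and less RNA per cell cannot be told apart.

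The labels of the sets disagreed with each other, and every test was therefore made within a set, with the labels as deposited and no library moved. EN1, which specifies the ventral side of the limb, averaged 11.8 CPM in first-set volar and at most 0.887 CPM in the other first-set labels, but in the second set it was highest in the libraries labelled flank, at 17.3 CPM. ALX1, a facial transcription factor gene, had its highest means in the snout libraries of the first set, at 18.5 CPM, and in the libraries labelled volar of the second, at 19.4 CPM. Over the 2000 most variable genes with every HOX gene left out, each second-set library was set against the mean profile of each first-set label. In the order of the pigs aged 5 and 6 months, the libraries labelled flank were closest to volar (r = 0.87 and 0.87), those labelled volar to snout (0.77 and 0.82), those labelled dorsal to flank (0.84 and 0.80) and those labelled snout to dorsal (0.82 and 0.86). For the libraries labelled dorsal the next site was dorsal itself, at 0.63 and 0.75. These values describe the libraries and entered no test or mean.

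**Figure D1:**
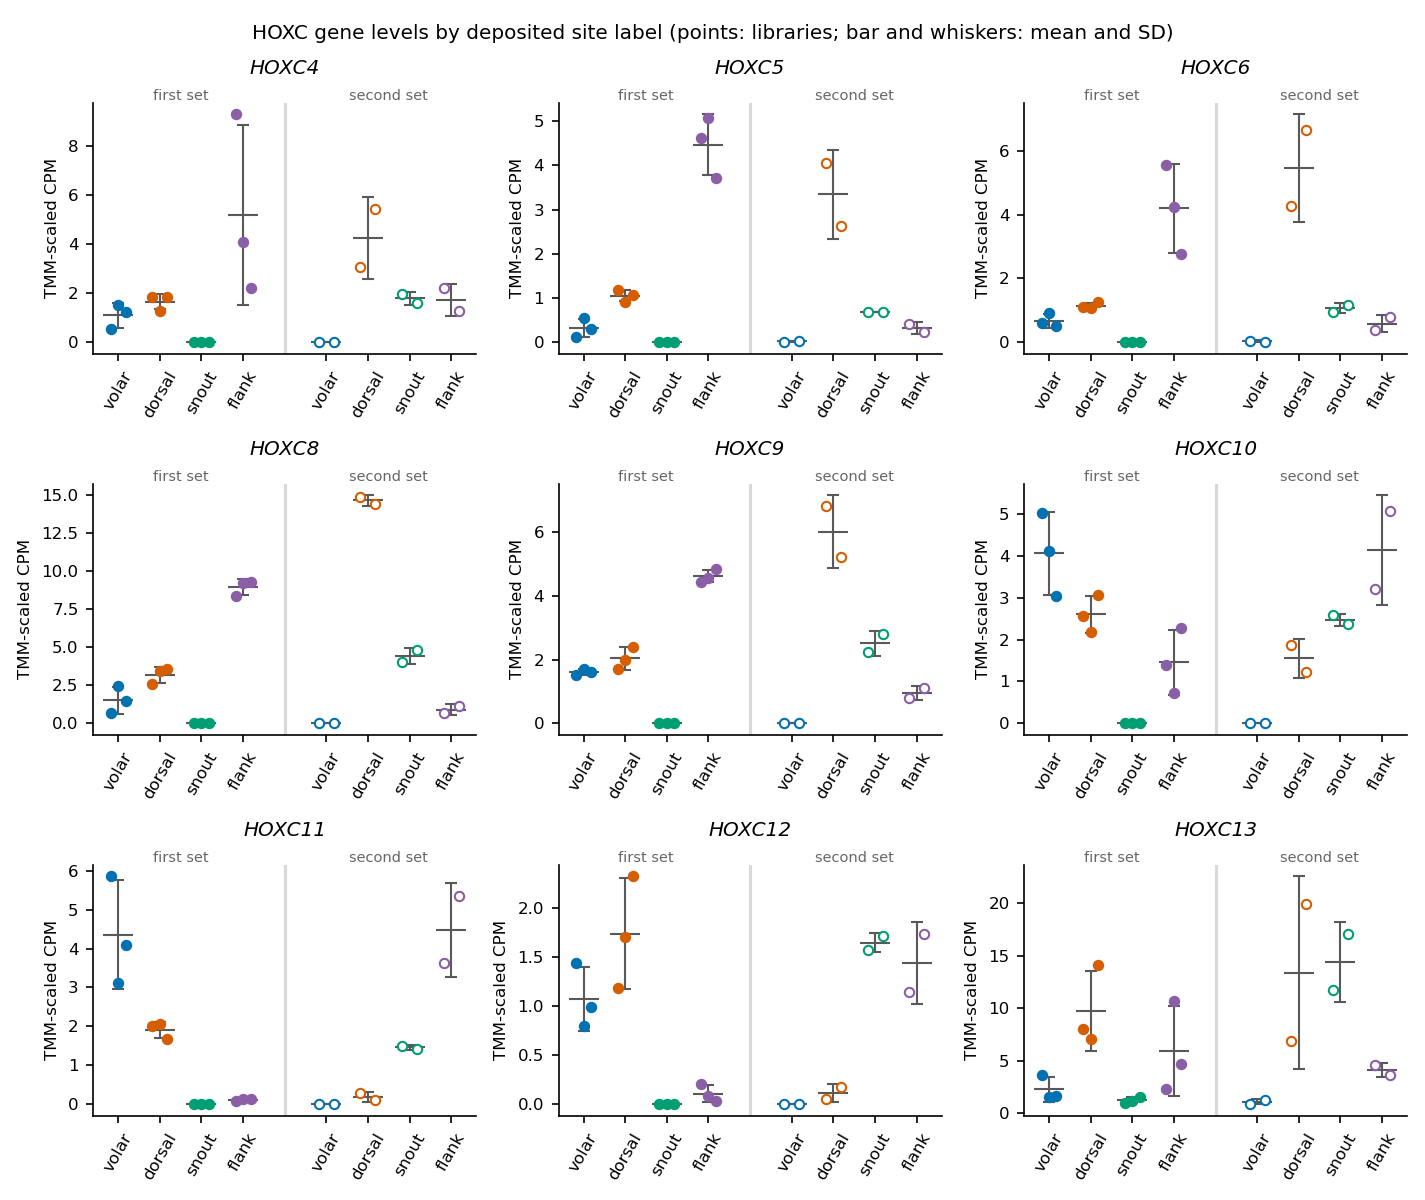
Level of each HOXC gene in TMM-scaled CPM (vertical axes, each with its own scale) by deposited label, with the first set on the left of each panel (filled points, 3 libraries per label) and the second set on the right (open points, 2 libraries per label). Points are libraries, and the bar and whiskers are the mean and SD. HOXC4 to HOXC12 lie at or next to 0 in first-set snout and in the second-set libraries labelled volar, and HOXC13 does not reach 0 in any library.

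Snout skin of the first set held almost no HOXC transcripts other than HOXC13. HOXC4, HOXC6, HOXC8, HOXC9, HOXC10, HOXC11 and HOXC12 had 0 counts in all 3 snout libraries, which allows a mean of up to 0.0156 CPM when 3 counts over the group are taken as the limit. HOXC5 had 2 counts over the 3 libraries, and HOXC13 had 0.938, 1.20 and 1.51 CPM in the pigs aged 4, 7 and 8 months. The snout libraries were therefore not empty of the cluster, but HOXC13 was the only member with more than 2 counts there.

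In volar skin 8 of 9 members were higher than in snout (edgeR adjusted p under 0.05), where 7.54% of all genes tested were higher. HOXC11 averaged 4.36 ± 1.39 CPM in volar (SD, n = 3) and was at least 280-fold higher there than in snout, HOXC10 at least 261-fold and HOXC9 at least 104-fold. The bounds of HOXC8, HOXC4, HOXC12 and HOXC6 were at least 97.8-fold, 70.2-fold, 69.3-fold and 43.2-fold. For HOXC5, with 42 counts in volar and 2 in snout, the ratio of means was 31.2, with a 95% counting interval of 8.12 to 266. HOXC13 did not pass (log2 fold change 0.90 ± 0.53 SE, adjusted p = 0.298). It averaged 2.27 ± 1.17 CPM in volar and 1.22 ± 0.285 CPM in snout.

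In dorsal foot skin 9 of 9 members were higher than in snout, where 4.21% of all genes were higher. HOXC8 was at least 204-fold higher in dorsal and HOXC10 at least 168-fold, and HOXC13 averaged 9.74 ± 3.82 CPM in dorsal and 1.22 ± 0.285 CPM in snout, a log2 fold change of 3.00 ± 0.55 (adjusted p = 0.00281). Against flank, snout was lower for 9 of 9 members, where 6.81% of all genes were lower. HOXC8 was at least 576-fold lower in snout than in flank, while HOXC11 and HOXC12, which were low in flank as well, were at least 7.85-fold and 7.06-fold lower. With genes at 0 counts held at their bound, the median log2 fold change of the 9 members was 6.13 for volar minus snout, 6.81 for dorsal minus snout and -8.08 for snout minus flank, against 0, -0.02 and -0.03 over all genes tested.

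Marker genes of several cell types also differed between some of these sites. The 6 dermal fibroblast markers (COL1A1, COL1A2, COL3A1, PDGFRA, LUM and DCN) were all present at every site, with sums of 12700 to 37500 CPM in volar, 28500 to 77400 in dorsal, 22100 to 36900 in snout and 102000 to 151000 in flank. The fibroblast sums of volar and snout overlapped. The 7 skeletal muscle markers in the table summed to 8.08 to 7200 CPM in snout. Elsewhere in the first set they summed to at most 155 CPM. The high muscle sum did not hold in every snout library, as CKM averaged 408 CPM there and ran from 2.74 to 1220 CPM. The 2 keratinocyte markers in the table summed to 52500 to 58200 CPM in volar, 3350 to 6230 in dorsal, 8220 to 13600 in snout and 2470 to 2680 in flank, and the 4 adipocyte markers to 44.4 to 81.3 CPM in volar, 452 to 673 in dorsal, 110 to 242 in snout and 246 to 2910 in flank. The part of these cell types in the HOXC differences was not tested.

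The low-numbered members formed a group with its highest CPM in flank, the site that also had the highest fibroblast sums. HOXC8, which in mouse acts in the vertebrae and motor neurons at the level of the forelimb and thorax, had 0.659, 2.44 and 1.46 CPM in volar skin of the pigs aged 4, 7 and 8 months, 2.57, 3.43 and 3.54 CPM in dorsal, 0 in snout and 8.34, 9.20 and 9.31 CPM in flank. HOXC9, a gene of the thoracic segments, had 1.52, 1.72 and 1.61 CPM in volar, 1.71, 2.00 and 2.41 in dorsal, 0 in snout and 4.45, 4.57 and 4.83 in flank. Both genes had their 3 flank libraries above every other first-set library, and the volar and dorsal values of HOXC9 overlapped while those of HOXC8 did not.

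HOXC4, HOXC5 and HOXC6 act from the neck to the upper thorax in the embryo. HOXC5 had 0.127, 0.540 and 0.311 CPM in volar, 1.18, 0.919 and 1.07 in dorsal, at most 0.0171 in snout and 4.63, 5.07 and 3.72 in flank. HOXC6 ran from 0.506 to 0.926 CPM in volar, from 1.08 to 1.25 in dorsal and from 2.78 to 5.58 in flank. HOXC4 ran from 0.532 to 1.52 CPM in volar, from 1.29 to 1.85 in dorsal and from 2.20 to 9.29 in flank, where the highest value was that of the pig aged 4 months. The 3 genes therefore shared the order flank, dorsal, volar and snout by mean, and the foot sites overlapped only for HOXC4. In human these 3 genes share a leading exon in some transcripts, and how the authors' estimated counts were split between them is not given in the sources used here. The estimated counts of HOXC5 and HOXC6 were whole numbers in every library. Those of HOXC4 were not whole in any library where it was detected.

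Between volar and flank, 8 of 9 members passed the test in the first set, where 35.5% of all genes did (18.2% higher and 17.3% lower). The 5 that were lower in volar were the low-numbered ones: HOXC5 with a log2 fold change of -3.77 ± 0.46 (SE; adjusted p = 2.49e-05), HOXC6 with -2.65 ± 0.44 (0.000526), HOXC8 with -2.56 ± 0.39 (0.000253), HOXC4 with -2.24 ± 0.54 (0.00648) and HOXC9 with -1.51 ± 0.23 (0.000399). The 3 that were higher in volar were HOXC10, HOXC11 and HOXC12. The sign of the difference changed between HOXC9 and HOXC10, which are neighbours among the HOXC genes, and the median over the 9 members was -1.51 against -0.06 over all genes. The fibroblast and adipocyte sums were also lower in every volar than in every flank library and the keratinocyte sum was higher, and the 4 hair markers in the table summed to 0.0761 to 0.514 CPM in volar and 278 to 3210 CPM in flank. Their part in the HOXC differences was not tested.

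HOXC10, HOXC11 and HOXC12 had their highest means in the foot, but the dorsal and flank values of HOXC10 overlapped. HOXC10, which in mouse is used in the lumbar spine and the hind limb, had 5.02, 4.12 and 3.05 CPM in volar of the pigs aged 4, 7 and 8 months, 2.57, 2.18 and 3.07 in dorsal, 0 in snout and 1.39, 0.720 and 2.27 in flank. HOXC11, a hind limb and sacral gene in mouse, had 5.86, 3.11 and 4.10 CPM in volar, 2.02, 2.05 and 1.68 in dorsal, 0 in snout and 0.0926, 0.135 and 0.139 in flank. HOXC12, whose mouse counterpart is used at the hind end of the body and in the hair follicle, had 1.44, 0.797 and 0.992 CPM in volar, 1.19, 1.71 and 2.33 in dorsal, 0 in snout and 0.208, 0.0899 and 0.0308 in flank. HOXC11 and HOXC12 thus split the first set into foot libraries and the rest with no overlap, and HOXC11 also separated volar from dorsal. Volar exceeded flank by a log2 fold change of 5.11 ± 0.42 for HOXC11 (adjusted p = 4.32e-06), 3.34 ± 0.62 for HOXC12 (0.00138) and 1.48 ± 0.39 for HOXC10 (0.0121).

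Few genes were called between dorsal foot and flank skin of the first set, at 0.362% of all genes (0.172% higher and 0.191% lower), and 3 of the 9 HOXC members were among those calls. An unadjusted p under 0.05 by edgeR was reached by 1551 genes, so the few calls do not show that the sites were alike. HOXC11 was higher in dorsal by 3.93 ± 0.40 on the log2 scale (adjusted p = 0.00269) and HOXC12 by 4.03 ± 0.63 (0.0281). HOXC5 was lower in dorsal by a log2 fold change of -2.08 ± 0.42 (0.0471). HOXC6 (-1.87 ± 0.42, 0.0969), HOXC8 (-1.49 ± 0.37, 0.130), HOXC9 (-1.18 ± 0.23, 0.0617) and HOXC4 (-1.64 ± 0.52, 0.264) did not pass the test. Neither did HOXC10 (0.84 ± 0.39, 0.512) nor HOXC13 (0.72 ± 0.51, 0.736). Of the 3, HOXC11 kept its call in 28 of 28 other settings, with the fit of 4 label groups over all pigs left aside. HOXC12 lost it in 6 of them and HOXC5 in 21, while DESeq2 and limma-voom also called HOXC6, HOXC8 and HOXC9. HOXC12 lost its call with the libraries of 1 set only and without any 1 first-set dorsal library. It also did so without the flank library of the pig aged 7 or 8 months. Many of the 28 settings leave out a library of a group not compared here. Without the dorsal library of any 1 pig, or the flank library of the pig aged 7 or 8 months, the count of members called fell to 1. The fibroblast sum was also below that of flank in all 3 dorsal libraries, and its part in these differences was not tested.

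Volar and dorsal foot skin of the same pigs differed in 3 of 9 members, against 26.6% of all genes (15.4% higher and 11.1% lower). Higher genes made up 58.1% of these calls, and 44.9% with upper-quartile scaling, which moved the median log2 fold change of all genes to -0.12. HOXC11 was higher in volar by a log2 fold change of 1.18 ± 0.34 (adjusted p = 0.0232), and HOXC5 (-1.69 ± 0.44, 0.00965) and HOXC13 (-2.10 ± 0.53, 0.00877) were lower. The call of HOXC11 was lost without the volar library of the pig aged 4 months and without any 1 of the 3 dorsal libraries (highest adjusted p = 0.0947). HOXC8 had a log2 fold change of -1.06 ± 0.37 with adjusted p = 0.0514, and it passed in 9 of 28 other settings, among them the fit with the pig as block (0.0214) and those without the volar library of the pig aged 7 months or the snout library of the pig aged 4 or 7 months. HOXC6 (-0.78 ± 0.43, 0.206), HOXC4 (-0.60 ± 0.52, 0.447), HOXC9 (-0.33 ± 0.23, 0.332), HOXC10 (0.64 ± 0.39, 0.255) and HOXC12 (-0.69 ± 0.53, 0.385) did not pass.

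**Figure D2:**
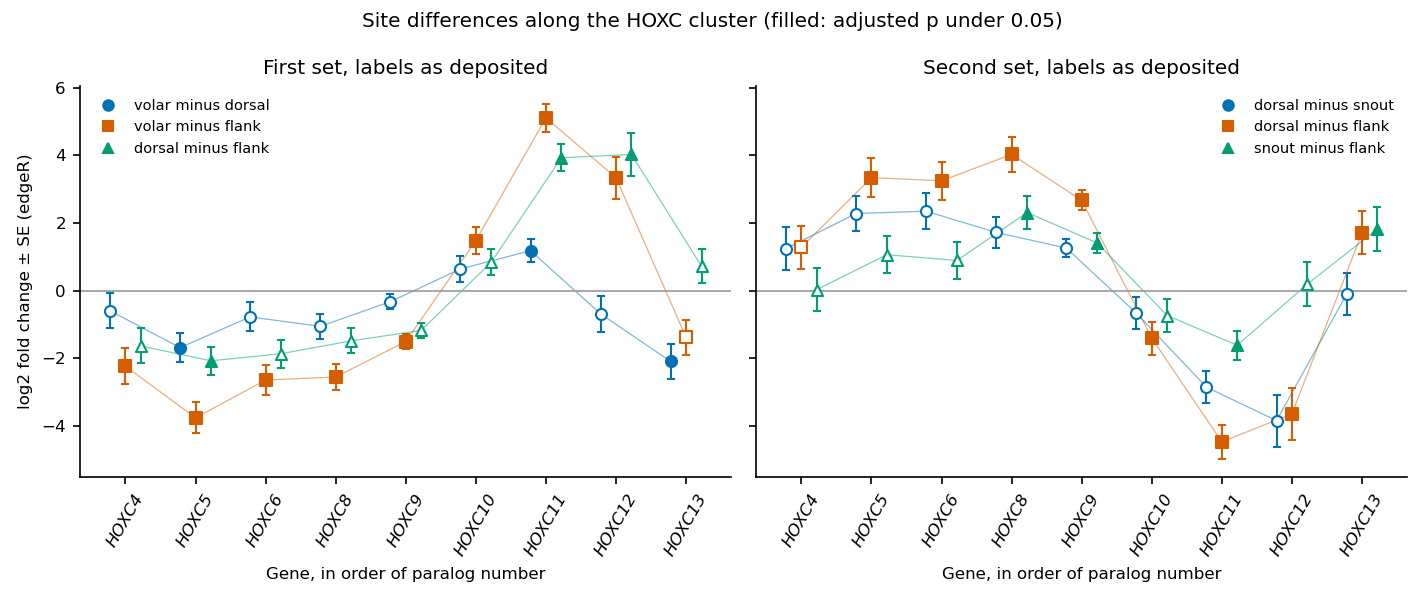
edgeR log2 fold change ± SE of each HOXC gene, in order of paralog number, for the 3 comparisons of the first set that leave out snout (left) and the 3 comparisons of the second set that leave out the libraries labelled volar (right), with filled symbols for adjusted p under 0.05 and open symbols otherwise. In the first set volar minus flank lies between -3.77 and -1.51 for HOXC4 to HOXC9 and between 1.48 and 5.11 for HOXC10 to HOXC12, and in the second set the libraries labelled dorsal and flank differ with the opposite signs.

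The makeup of the HOXC4 to HOXC12 transcripts differed between the foot sites more plainly than their sum did. The sums were 15.7, 15.2 and 13.3 CPM in volar, 14.2, 14.6 and 17.2 in dorsal, at most 0.0171 in snout and 34, 28.1 and 25.3 in flank, so the volar and dorsal sums overlapped. Without TMM scaling they did not, at 10.6 to 12.3 CPM in volar and 17.2 to 20.8 CPM in dorsal. The shares of the members within a library do not depend on the scaling. HOXC10 to HOXC12 made up 78.3%, 52.9% and 61.4% of the HOXC4 to HOXC12 counts in volar of the pigs aged 4, 7 and 8 months, with exact 95% intervals of 74.8% to 81.4%, 48.8% to 57.0% and 57.7% to 65.1%. In dorsal the shares were 40.7%, 40.5% and 41.2%, and in flank 4.98%, 3.36% and 9.64%. The 3 sites did not overlap, and the dorsal libraries stood within 1 percentage point of each other while the volar libraries spread widely. The ratio of HOXC11 to HOXC8 counts was 8.88, 1.27 and 2.81 in volar, 0.786, 0.598 and 0.474 in dorsal and at most 0.0149 in flank. These shares were chosen as a measure after the values were seen, they carry the lengths of the transcripts, and their intervals cover counting error only.

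**Figure D3:**
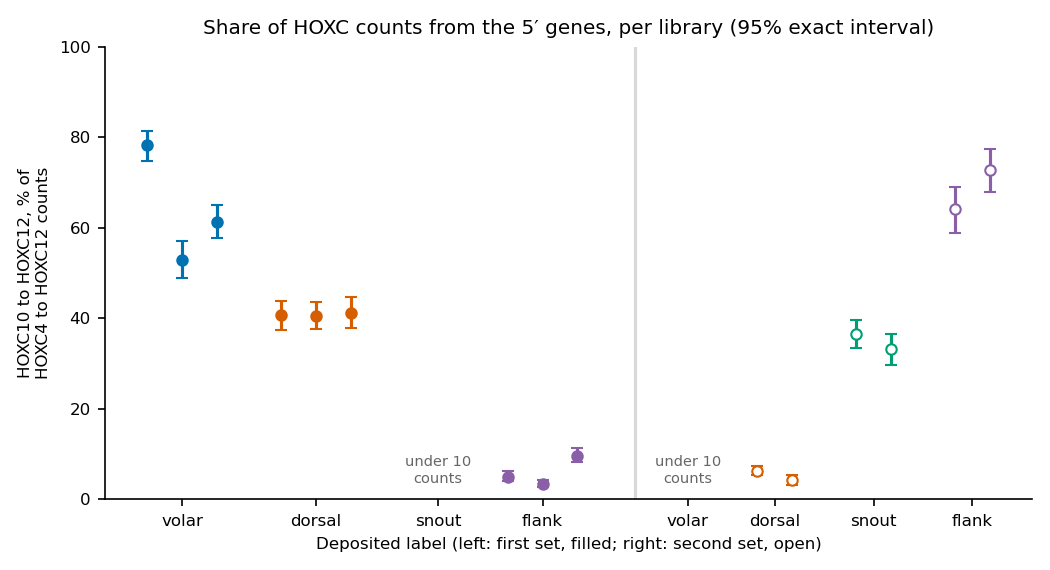
Share of the HOXC4 to HOXC12 counts that came from HOXC10, HOXC11 and HOXC12 (vertical axis, percent) in each library, with exact 95% intervals, by deposited label (horizontal axis), first set filled on the left and second set open on the right. Within a label libraries run from the youngest to the oldest pig. First-set volar spans 52.9% to 78.3%, dorsal 40.5% to 41.2% and flank 3.36% to 9.64%, and the second-set libraries labelled flank, snout and dorsal stand at 64.1% to 72.9%, 33.1% to 36.5% and 4.22% to 6.27%.

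HOXC13 was detected at all 4 sites. It had 3.63, 1.57 and 1.61 CPM in volar of the pigs aged 4, 7 and 8 months, 8.05, 7.05 and 14.1 in dorsal, 0.938, 1.20 and 1.51 in snout and 2.34, 10.7 and 4.70 in flank. Its dorsal libraries lay above all volar and snout libraries, and flank overlapped both volar and dorsal. Volar minus flank gave a log2 fold change of -1.39 ± 0.52 (adjusted p = 0.0516), which passed in 8 of 28 other settings, among them those without the flank or the volar library of the pig aged 4 months. Dorsal minus flank gave 0.72 ± 0.51 (0.736), and snout minus flank -2.28 ± 0.54 (0.00977).

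The hair genes listed as linked to HOXC13, 12 of which were tested, moved further than HOXC13 itself between volar and dorsal. In the first set 11 of the 12 were lower in volar than in dorsal, where 11.1% of all genes were lower, with a median log2 fold change of -9.48. KRT85, a keratin gene of the hair cortex, had 0.0254, 0.283 and 0 CPM in volar of the pigs aged 4, 7 and 8 months and 283, 351 and 798 CPM in dorsal. HOXC13 transcripts were therefore detected in sole libraries in which the hair cortex gene was at or near 0. In the second set the libraries labelled flank, closest to volar, had HOXC13 at 4.57 and 3.61 CPM in the pigs aged 5 and 6 months and KRT85 at 0 in both, while their summed hair genes stood at 274 and 22.5 CPM, against 5.35 to 9.99 CPM in first-set volar. The 12 summed genes include KRT85 and FOXN1, the transcription factor gene that acts with HOXC13 in hair and nail. In first-set volar FOXN1 had 2.89, 6.46 and 3.89 CPM in the pigs aged 4, 7 and 8 months. The hair sums there were 9.99, 8.77 and 5.35 CPM. Over the 20 libraries log2 CPM of HOXC13 had a Pearson r of 0.76 with the summed hair genes, 0.54 with KRT85 and 0.53 with FOXN1. These points share pigs, sites and sequencing sets, so the r values are descriptive.

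**Figure D4:**
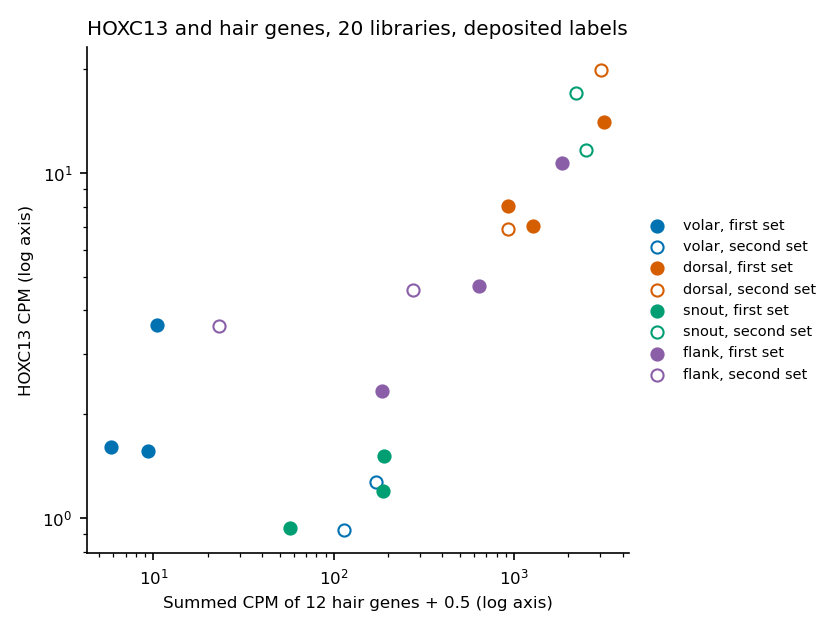
HOXC13 level (vertical axis, TMM-scaled CPM, log axis) against the summed level of 12 hair genes with 0.5 CPM added (horizontal axis, log axis) in the 20 libraries, filled for the first set and open for the second, coloured by deposited label. KRT85 and FOXN1 are among the 12 genes. The 5 libraries with the highest hair sums also have the 5 highest HOXC13 levels, while first-set volar holds 1.57 to 3.63 CPM of HOXC13 at hair sums of 5.35 to 9.99 CPM, where snout holds 0.938 to 1.51 CPM at sums of 57.0 to 190 CPM.

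In the second set the libraries labelled volar held few HOXC transcripts other than those of HOXC13. HOXC4, HOXC9, HOXC10, HOXC11 and HOXC12 had 0 counts in both, HOXC5, HOXC6 and HOXC8 had 2, 3 and 1 counts over both, and HOXC13 had 0.922 and 1.27 CPM. Against the libraries labelled dorsal they were lower for 9 of 9 members (4.00% of all genes were lower), against those labelled snout for 9 of 9 (2.59%) and against those labelled flank for 9 of 9 (16.6%). HOXC9 was at least 209-fold lower than in the libraries labelled dorsal, and HOXC11 at least 156-fold lower than in those labelled flank. HOXC13 was lower by -3.62 ± 0.70 (adjusted p = 0.00491) against the label dorsal, by -3.72 ± 0.70 (0.00569) against snout and by -1.91 ± 0.67 (0.0371) against flank. Some of these calls rested on single libraries. Against the label dorsal, HOXC13 lost its call without the volar library of the pig aged 5 months (adjusted p = 0.0606), and HOXC12 lost its call without the volar library of either pig (0.168 and 0.110 for the pigs aged 5 and 6 months) or the dorsal library of the pig aged 6 months (0.133). HOXC13 also lost its call against snout without either volar library (up to 0.0754), and against flank without any 1 of the 4 libraries compared (up to 0.185). The libraries labelled volar held 3390 to 4980 CPM of the muscle markers, against at most 146 CPM in the other second-set labels, and 29200 to 50600 CPM of the fibroblast markers, and their part in the low HOXC levels was not tested.

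The switch between low-numbered and high-numbered members recurred between the libraries labelled dorsal and flank. HOXC8 had 14.9 and 14.4 CPM in the libraries labelled dorsal of the pigs aged 5 and 6 months, 4.05 and 4.82 in those labelled snout, and 0.662 and 1.14 in those labelled flank. HOXC11 had 0.281 and 0.104 CPM in the libraries labelled dorsal, 1.51 and 1.41 in those labelled snout, and 3.63 and 5.34 in those labelled flank. The 3 labels did not overlap for either gene, and the genes ran in opposite orders. For the label dorsal minus flank 8 of 9 members passed, where 45.1% of all genes did (24.2% higher and 20.9% lower). HOXC5, HOXC6, HOXC8, HOXC9 and HOXC13 were higher and HOXC10, HOXC11 and HOXC12 lower. HOXC8 gave 4.03 ± 0.51 (adjusted p = 4.90e-05), HOXC9 2.67 ± 0.30 (3.02e-05) and HOXC11 -4.48 ± 0.50 (2.51e-05). HOXC13 gave 1.71 ± 0.64 (0.0419), or adjusted p = 0.0794 with the pig as block, and it lost its call without either flank library or the dorsal library of the pig aged 6 months (up to 0.413). In the second set limma-voom ended this call of HOXC13, those of HOXC13 in volar minus flank and snout minus flank, and that of HOXC12 in volar minus dorsal. HOXC10, at -1.41 ± 0.49 (0.0325), lost its call without either dorsal library or the flank library of the pig aged 6 months (up to 0.187). The fibroblast sums of these labels were 112000 to 230000 CPM for dorsal, 50900 to 82200 for snout and 6180 to 8150 for flank. The keratinocyte sums were 1730 to 2770 CPM for dorsal, 2580 to 4980 for snout and 68600 to 103000 for flank, and the adipocyte sums 717 to 1790, 595 to 620 and 36 to 145 CPM for the same labels. The part of these cell types in the HOXC differences was not tested.

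For the labels snout minus flank 4 of 9 members passed, against 41.8% of all genes (22.1% higher and 19.6% lower). HOXC8 (2.31 ± 0.49, adjusted p = 0.00223), HOXC9 (1.41 ± 0.29, 0.00248) and HOXC13 (1.82 ± 0.65, 0.0345) were higher in the libraries labelled snout and HOXC11 (-1.62 ± 0.43, 0.00976) was lower. The count fell to 2 without the snout library of either pig or the flank library of the pig aged 6 months, and without the flank library of the pig aged 5 months HOXC13 lost its call. With the pig as block HOXC13 had adjusted p = 0.0514. For dorsal minus snout edgeR called 0 of 9 members, with 0.00636% of all genes called. Of the members 6 had an unadjusted p under 0.05, as had 844 genes in all, and DESeq2 and limma-voom each called those 6. They were HOXC5, HOXC6, HOXC8 and HOXC9, with log2 fold changes of 1.26 to 2.35, and HOXC11 and HOXC12, with -2.86 ± 0.47 and -3.85 ± 0.77.

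By deposited label, the order of the 4 means was the same in both sets for 0 of 9 members. When each second-set label was read as its closest site by the other genes, the order was the same as in the first set for 9 of 9. HOXC4, HOXC5, HOXC6, HOXC8 and HOXC9 then ran flank, dorsal, volar, snout from high to low, HOXC10 and HOXC11 ran volar, dorsal, flank, snout, HOXC12 ran dorsal, volar, flank, snout, and HOXC13 ran dorsal, flank, volar, snout. Without TMM scaling the first-set means of HOXC10 were 3.17 CPM under volar and 3.22 CPM under dorsal. Its second-set means were then 2.94 CPM under the label snout and 2.37 CPM under the label flank, so that its foot sites changed places in both sets. In the first set each neighbouring pair in the order was told apart by the test for HOXC5 and HOXC11. Volar was not told apart from dorsal for HOXC4, HOXC6, HOXC8, HOXC9, HOXC10 and HOXC12, nor dorsal from flank for HOXC4, HOXC6, HOXC8, HOXC9, HOXC10 and HOXC13. For HOXC13 volar was also not told apart from flank (edgeR adjusted p = 0.0516) or from snout (0.298). In the second set the labels dorsal and snout were told apart for 0 of 9 members. Snout and flank were not told apart for HOXC5, HOXC6 and HOXC10, nor for HOXC4 (1.78 and 1.74 CPM, edgeR adjusted p = 0.976) and HOXC12 (1.65 and 1.44 CPM, 0.837). The 9 of 9 therefore include ranks that the test did not tell apart. The test that site differences were equal in both sets was failed by 9 of 9 members, where 49.3% of all genes failed it.

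Across the 20 libraries likeness between the members was highest within the low-numbered and within the high-numbered genes. Pearson r of log2 CPM ran from 0.88 to 0.98 among HOXC4, HOXC5, HOXC6, HOXC8 and HOXC9, with the highest value for HOXC8 and HOXC9, and from 0.80 to 0.88 among HOXC10, HOXC11 and HOXC12. Between the groups it ran from -0.19 for HOXC5 and HOXC11 to 0.64 for HOXC9 and HOXC10. HOXC13 had r of 0.59 to 0.75 with the first group, highest with HOXC8, and 0.21 to 0.50 with the second. Outside the cluster, over 11950 genes of at least 1 CPM on average, the gene most like HOXC11 was SP8, a transcription factor gene of the limb bud ridge (r = 0.981). SP8 averaged 6.26 CPM in volar, 2.38 in dorsal, 0.0233 in snout and 0 in flank of the first set. HOXC12 was most like HOXD11 (0.884), HOXC6 like HOXB2 (0.938), HOXC9 like HOXB7 (0.915), HOXC4 and HOXC8 like the epidermal keratin gene KRT77 (0.876 and 0.936), HOXC5 like IL2RB (0.931), HOXC10 like the gap junction gene GJA1 (0.933) and HOXC13 like the calpain gene CAPN12 (0.949). The libraries share 5 pigs and 4 labels, and likeness over sites was not separated from likeness within them.

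The other HOX clusters were set beside HOXC in the comparisons that separated its members most. For first-set snout minus flank, 8 of 8 HOXA genes were lower in snout (median log2 fold change -6.08) and 7 of 7 tested HOXB genes (-5.17), but 3 of 8 HOXD genes (-1.14), where 6.81% of all genes were lower. HOXD8 averaged 9.10 CPM in snout and 26.0 CPM in flank, so that HOX transcripts as such were not missing from snout skin. For volar minus flank 1 HOXA gene was higher and 4 were lower, 0 HOXB genes were higher and 3 were lower, and 1 HOXD gene was higher and 3 were lower, where 18.2% of all genes were higher and 17.3% lower, so that the HOXD count stood near the share of all genes. HOXA11, the HOXA gene of the same paralog number as HOXC11, was the higher one, with 2.99 CPM in volar and 0.287 CPM in flank (log2 fold change 3.34 ± 0.71, adjusted p = 0.00199). HOXB2 averaged 0.546 CPM in volar and 3.46 CPM in flank (-2.67 ± 0.48, 0.000579). Of the genes listed as lying in or beside the HOXC cluster, 3 were tested, and for snout minus flank SMUG1, a DNA repair gene, was the only 1 called, at 16.3 CPM in snout and 24.0 CPM in flank (-0.55 ± 0.14, 0.0138).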

How the data were processed

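RNA was taken from skin punches of 5 pigs at 4 labelled sites, and poly(A) RNA was sequenced with a stranded kit, per the labels' protocols. The authors' deposited values are estimated counts per gene. The submitters' processing notes name Salmon as the tool. Which Salmon version, build and annotation they used is not given in the sources used here, so no coordinates are printed. Because 42.2% of the entries differed from a whole number by more than 0.000000001, all were rounded before fitting. Symbols came from a table of gene identifiers, which matched 14821 of 19280 rows.

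Libraries were compared as 8 groups (set and label) in R 4.3.3 with edgeR 4.0.16, using its quasi-likelihood test with robust dispersion, TMM factors (0.57 to 1.29), a filter with a minimum count of 10 and a minimum total of 15, and Benjamini-Hochberg adjustment over 15735 genes. A call is an adjusted p under 0.05, and 12 residual degrees of freedom were left. All pairs of labels were compared within each set, and a test of site by set was added. Each SE was derived from the edgeR test, as the size of the log2 fold change divided by the square root of its F statistic. Where a group had 0 counts, the fold is a bound computed against 3 counts over the group, and where it had 1 to 3 counts a ratio with a 95% counting interval is given. Pearson r used log2 CPM with 0.5 added. Levels were also computed without TMM factors. Alternatives were DESeq2 1.42.0, limma 3.58.1 (voom), other scalings, no filter, the 20 most abundant genes left out, the pig as block, 1 set only, 4 label groups over all pigs, and leaving out each library. The model was tested on simulated data.

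The labels give each pig 1 library per site, so same-aged libraries come from the same animal. Their deviations from the group means correlated with a median r of 0.21 in the first set (0 to 0.43) and 0.31 in the second (0.11 to 0.43).

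All 9 HOXC genes were tested in each comparison, and the text does not print every value. The 3 most alike genes were taken by r among symbols outside the cluster with a mean of at least 1 CPM, of which the first is named, and from other lists up to 3 members with the smallest adjusted p. HOXD8, SP8, EN1 and ALX1 fall outside that rule or were read as site markers. The members and lists were chosen with earlier results of these data known. Intervals and floors cover counting error only. How often groups of libraries do not overlap over all genes is not given here, so a lack of overlap describes the HOXC values only.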

Additional observations from a re-analysis of the deposited data

Results flagged for a closer look

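In every HOXC gene the site differences of the second set departed from those of the first, by the edgeR test of site by set. The adjusted p was 1.21e-05 for HOXC4, 1.48e-06 for HOXC5, 1.93e-06 for HOXC6, 2.13e-07 for HOXC8, 2.18e-08 for HOXC9, 7.72e-07 for HOXC10, 1.16e-07 for HOXC11, 4.27e-06 for HOXC12 and 0.0013 for HOXC13. HOXC8 gives the size: it averaged 1.52 CPM in volar, 3.18 in dorsal, 0 in snout and 8.95 in flank of the first set, and 0.00744, 14.6, 4.43 and 0.902 CPM under the same labels of the second. The set, the age of the pigs and the assignment of labels cannot be told apart in this test.

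HOXC13 had 1 library far from the other 4 of its label at 2 sites. Among the 5 libraries labelled volar the pig aged 4 months had 3.63 CPM, above the other 4 at 0.922 to 1.61 CPM. Among the 5 labelled flank the pig aged 7 months had 10.7 CPM, above the other 4 at 2.34 to 4.70 CPM. Of 36 groups of a gene and a label screened, these 2 had such a gap. Each group mixes both sets, whose labels disagree. How often chance gives such a gap can therefore not be stated, and nothing is concluded from the 2 gaps.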

How the results depend on the processing

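Leaving aside the fit of 4 label groups over all pigs, 3267 values of single HOXC members under other settings were set against the main fit. Of these 3170 kept their side of the threshold, 37 passed it newly, 60 no longer passed it and 0 reversed. A reversal was counted only where either fit made a call, and the test of site by set has no direction. The settings include leaving out libraries of groups that a comparison does not use. The fit of 4 label groups over all pigs, which averages the disagreeing sets, called 0 genes and 0 HOXC members in each of the 12 comparisons. There the log2 fold change reversed for first-set HOXC10 in volar minus flank (-0.05), for HOXC4 (-0.12), HOXC5 (-0.46), HOXC6 (-0.05), HOXC8 (-0.95), HOXC9 (-0.04) and HOXC12 (-0.02) in volar minus snout, for HOXC11 in dorsal minus flank (-0.58), and for HOXC12 (0.08) and HOXC13 (0.32) in snout minus flank. Against the second set it reversed for HOXC10 (0.15) and HOXC11 (1.08) in volar minus dorsal, HOXC11 (0.50) and HOXC12 (0.05) in volar minus flank, HOXC10 (1.30) and HOXC11 (2.17) in volar minus snout, HOXC5 (-0.52) and HOXC12 (0.82) in dorsal minus flank, and HOXC8 (-1.70) and HOXC9 (-1.66) in snout minus flank.

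The comparisons with the fewest calls moved most with the method. For first-set dorsal minus flank, with 57 genes called, DESeq2 called 334 (6 HOXC members), limma-voom 115 (6), the fit with the pig as replicate block 125, and the libraries of 1 set only 20 (1). For second-set dorsal minus snout, with 1 gene called, DESeq2 called 106 (6 HOXC members), limma-voom 26 (6), the replicate block 4 and 1 set only 6. For second-set volar minus snout DESeq2 called 1793 genes, against 1154. The cause was not tested. Besides the changes given with the results, the replicate block changed no HOXC call.

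Leaving out 1 library gave 1518 to 2677 genes for first-set volar minus snout (1518 and 1571 without the snout or the volar library of the pig aged 7 months), 9 to 77 for dorsal minus flank (1 to 4 HOXC members; 9 to 16 without any 1 first-set dorsal library, and 27 to 34 without the flank library of the pig aged 7 or 8 months, the snout library of the pig aged 5, 6 or 8 months or the volar library of the pig aged 5 or 6 months) and 1027 to 1877 for dorsal minus snout (1027 to 1051 without any 1 first-set dorsal library). In the second set it gave 517 to 1914 for volar minus dorsal, 3491 to 6039 for volar minus flank, 251 to 1426 for volar minus snout and 1 to 16 for dorsal minus snout, and 2 to 4 HOXC members for snout minus flank. For volar minus dorsal and volar minus snout each of the 4 libraries compared moved the count by over 1.5 times, and for volar minus flank the flank library of the pig aged 6 months and the volar library of the pig aged 5 months did. Each leaves 1 library in its group, assumed to vary like the others. Genes of few counts, such as HOXC11 in flank with 22 counts over 3 libraries, have fold changes limited by depth.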

Other observations

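Genes that act with or upstream of HOX proteins were called at shares near those of all genes in volar minus dorsal (TALE) and volar minus flank (Polycomb and trithorax) of the first set. The share of the TALE genes was not the same in every comparison. Of 7 tested genes for TALE homeodomain partners, 2 were higher and 0 lower in volar than in dorsal skin of the first set, where 15.4% of all genes were higher and 11.1% lower. MEIS1, which binds DNA beside HOX proteins, averaged 28.9 CPM in volar and 9.76 CPM in dorsal (edgeR log2 fold change 1.57 ± 0.23 SE, adjusted p = 0.000163), and PBX3 averaged 19.3 CPM in volar and 9.58 CPM in dorsal. MEIS1 was also lower in dorsal than in flank, at 9.76 CPM in dorsal and 26.0 CPM in flank (-1.41 ± 0.23, adjusted p = 0.0215). For the second-set labels dorsal minus flank 2 of the 7 TALE genes were higher and 4 lower, where 24.2% of all genes were higher and 20.9% lower. For the labels dorsal minus snout 0 were called, where 0.00636% of all genes were. Of 16 tested genes for Polycomb and trithorax proteins, which keep HOX genes off or on, 5 were higher and 1 was lower in volar than in flank, where 18.2% of all genes were higher and 17.3% lower. JARID2 averaged 122 CPM in volar and 53.0 CPM in flank (1.20 ± 0.15, adjusted p = 3.52e-05).

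In first-set volar skin, by rising age of the pig, the forelimb gene TBX5 had 3.37, 1.72 and 5.35 CPM. The hind limb gene TBX4 had 4.23, 2.55 and 1.83 CPM in the same libraries. Both were also detected in first-set dorsal (TBX5 at 4.66 to 6.80 CPM, TBX4 at 0.971 to 3.79) and flank (TBX5 at 2.99 to 5.38 CPM, TBX4 at 1.09 to 2.50).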
